A study of Mus musculus with 4 samples.

Results

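SR proteins and hnRNPs are the RNA-binding proteins that steer the choice of splice sites, and their transcripts were examined in neural stem/progenitor cells (NSCs) with and without the chromatin remodeler Chd5. Members were all rows of the deposited expression table whose gene name starts with Srsf or Hnrnp, together with Tra2a, Tra2b, Ptbp1, Ptbp2, Clk1 to Clk4, Srpk1 and Srpk2. This gave 43 rows of 18169, for 42 gene names, because Hnrnpll has 2 rows. They were 11 SR protein genes, 22 hnRNP rows, 4 Tra2 and PTB genes and 6 kinase genes. RNA-seq had been made from primary NSCs of 2 +/+ and 2 Chd5-/- mice of strain C57BL/6, with each culture taken from the periventricular tissue of 1 newborn and kept in medium with epidermal growth factor and fibroblast growth factor 2. The growth protocol gives postnatal day 1 for the cultures, whereas the age entries read day 1 and day 2 in +/+ but day 3 and day 4 in Chd5-/-, so by these entries age and genotype cannot be told apart.

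SR proteins carry RNA recognition motifs and a tail rich in arginine and serine, bind exonic enhancers and recruit the spliceosome to nearby splice sites. Many hnRNPs bind silencers and counteract them, so the balance between both families sets which alternative exons are included. Kinases of the Clk and Srpk families phosphorylate the tail of SR proteins and thereby control where in the cell they reside and when they act. In the nervous system Ptbp1, which is high in progenitors, gives way to its paralog Ptbp2 and later to neither as neurons mature, and many of these genes control their own level by splicing in an exon that sends the transcript to nonsense-mediated decay.

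Expression was deposited as TPM, transcript abundances in a unit with the same total in each sample that corrects for transcript length. The number of reads cannot be read from TPM, so depth is unknown and the error of each value rests on 2 samples per genotype. Chd5 itself measured 0.39 and 0.37 TPM in +/+, against 0.06 and 0.04 TPM in Chd5-/-, which follows the labels. The 20 most abundant rows held between 32.4% and 35.6% of all TPM in +/+ but 21.6% to 22.8% in Chd5-/-, so that all other rows together held a larger share in the mutant. The test was limma on log2(TPM + 1) for the 12576 rows averaging 1 TPM or more, adjusted over all of them by Benjamini-Hochberg. A log2 fold change is the Chd5-/- mean minus the +/+ mean on that scale, which understates the change of low genes. All rows tested had a median log2 fold change of 0.34 as deposited and 0.0052 after median-of-ratios scaling, and each class is read against it.

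Among neural stem cell markers Fabp7, Slc1a3, Vim and Sox2 were abundant in all samples, the lowest value being 200.69 TPM, whereas Notch1, Hes5 and Prom1 were low in most. Summed over 10 genes they reached 9698 and 8027 TPM in +/+, and to 3831 and 6598 TPM in Chd5-/-, replicate 1 being the lowest, although 4 of the 10 (Msi1, Notch1, Hes5 and Prom1) had log2 fold changes above 0. Astrocyte markers (6 genes) summed to 372 and 455 TPM in +/+ and to 133 and 637 TPM in Chd5-/- replicates 1 and 2. Oligodendrocyte lineage markers (7 of 8 names found) summed to between 571 and 631 TPM in +/+ and between 504 and 928 TPM in Chd5-/-, and the sum of 8 neuronal markers, nearly all of it Map2, ranged from 508 to 518 TPM and from 373 to 798 TPM. The other 7 neuronal markers were each at 7.62 TPM or less, with Rbfox3 at 0.07 TPM or 0. In 4 of them (Syt1, Stmn2, Tubb3 and Snap25) the Chd5-/- pair lay above the controls without overlap, beside 46.3% of all rows tested. Stmn2, Tubb3 and Snap25 averaged under 1 TPM and were not tested. Syt1 was at 0.73 and 0.73 TPM in +/+ against 2.21 and 7.62 TPM in Chd5-/-. Microglial markers (3 of 6 names found) summed to 0.75 TPM or less, and Aif1 was at 0 in 3 of 4 samples. Endothelial and mesenchymal markers (6 of 8 names found) summed to 17.8 TPM in Chd5-/- replicate 1 and to 0.43 TPM or less elsewhere. The part of these differences in the results was not tested. In such bulk samples fewer cells of a type and less RNA per cell cannot be told apart.

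Promoters are shown for the 5 members on which the comparison turns, the 3 of lowest p-value as deposited (Clk2, Clk3 and Hnrnpul1, all higher in Chd5-/- cells) and the SR protein and hnRNP genes with the lowest log2 fold change (Srsf1 and Hnrnpd). Each is the 250 bases before the RefSeq start on GRCm38.p6, on the strand of the gene, with each GGGCGG or its complement CCGCCC, the core of a GC box, in capitals. The Clk3 window lies inside the longer gene annotated in GENCODE M21 (57750624 to 57765860), so it is not upstream of that start.
Clk2, chr3:89164545-89164794, plus strand: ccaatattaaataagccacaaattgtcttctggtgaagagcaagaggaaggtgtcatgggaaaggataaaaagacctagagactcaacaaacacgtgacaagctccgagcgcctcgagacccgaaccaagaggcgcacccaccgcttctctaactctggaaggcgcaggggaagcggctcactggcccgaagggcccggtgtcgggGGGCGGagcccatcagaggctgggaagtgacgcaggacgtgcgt
Clk3, chr9:57765115-57765364, minus strand: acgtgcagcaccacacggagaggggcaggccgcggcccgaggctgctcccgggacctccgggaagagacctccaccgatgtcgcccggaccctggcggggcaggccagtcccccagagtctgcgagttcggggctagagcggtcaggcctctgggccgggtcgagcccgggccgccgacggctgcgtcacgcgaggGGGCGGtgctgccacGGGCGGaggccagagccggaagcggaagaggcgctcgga
Hnrnpul1, chr7:25754760-25755009, minus strand: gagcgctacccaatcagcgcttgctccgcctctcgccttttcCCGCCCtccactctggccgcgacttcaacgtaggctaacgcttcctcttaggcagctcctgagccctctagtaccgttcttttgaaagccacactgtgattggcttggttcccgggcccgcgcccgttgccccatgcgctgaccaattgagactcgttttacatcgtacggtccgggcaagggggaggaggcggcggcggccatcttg
Srsf1, chr11:88047123-88047372, plus strand: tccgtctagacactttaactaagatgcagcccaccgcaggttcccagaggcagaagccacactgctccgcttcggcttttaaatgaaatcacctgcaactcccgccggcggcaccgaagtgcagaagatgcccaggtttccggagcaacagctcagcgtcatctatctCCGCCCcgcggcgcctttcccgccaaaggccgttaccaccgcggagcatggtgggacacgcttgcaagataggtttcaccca
Hnrnpd, chr5:99978939-99979188, minus strand: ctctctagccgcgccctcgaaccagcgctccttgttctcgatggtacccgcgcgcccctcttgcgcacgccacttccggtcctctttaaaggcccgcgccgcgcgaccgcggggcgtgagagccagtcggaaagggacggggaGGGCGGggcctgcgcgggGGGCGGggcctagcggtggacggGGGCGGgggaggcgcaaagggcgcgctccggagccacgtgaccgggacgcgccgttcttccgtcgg

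All 5 windows are rich in G and C, from 57.2% in Clk2 to 75.2% in Clk3, and hold from 16 to 39 CpG dinucleotides. RefSeq windows were matched for 38 of the 42 names, 52 windows in all. Of these, 41 (78.8%) held GGGCGG on either strand, against 32.7% of all 32851 windows and 58.5% of the 11855 windows of rows tested. CCAAT on either strand was in 24 of the 52 windows (46.2%), against 33.9% of all windows and 35.7% of those of rows tested, and TATAAA on either strand in 3 (5.77%), against 12.4% and 6.28%. Both the windows of genes that were higher and those of genes that were lower held the GC box, and a match is a description of the letters alone.

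Splicing regulators were abundant transcripts of these NSCs. Together the 43 rows held 0.897% and 0.777% of all TPM in +/+, against 0.812% and 0.802% in Chd5-/-, so that the genotypes overlapped. Of the 42 rows averaging 1 TPM or more, 40 lay above the median row tested (18.1 TPM), and their own median was 118 TPM. hnRNPs made up most of this, with 6829 and 5882 TPM in +/+ and 6152 and 6136 TPM in Chd5-/-. SR proteins summed to 1354 and 1185 TPM in +/+ and to 1240 and 999.8 TPM in Chd5-/-. The SR to hnRNP ratio, into which no scaling between samples enters, was 0.198 and 0.202 in +/+ and 0.202 and 0.163 in Chd5-/- replicates 1 and 2, so 1 of the mutant samples stood below the others.

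**Figure D1:**
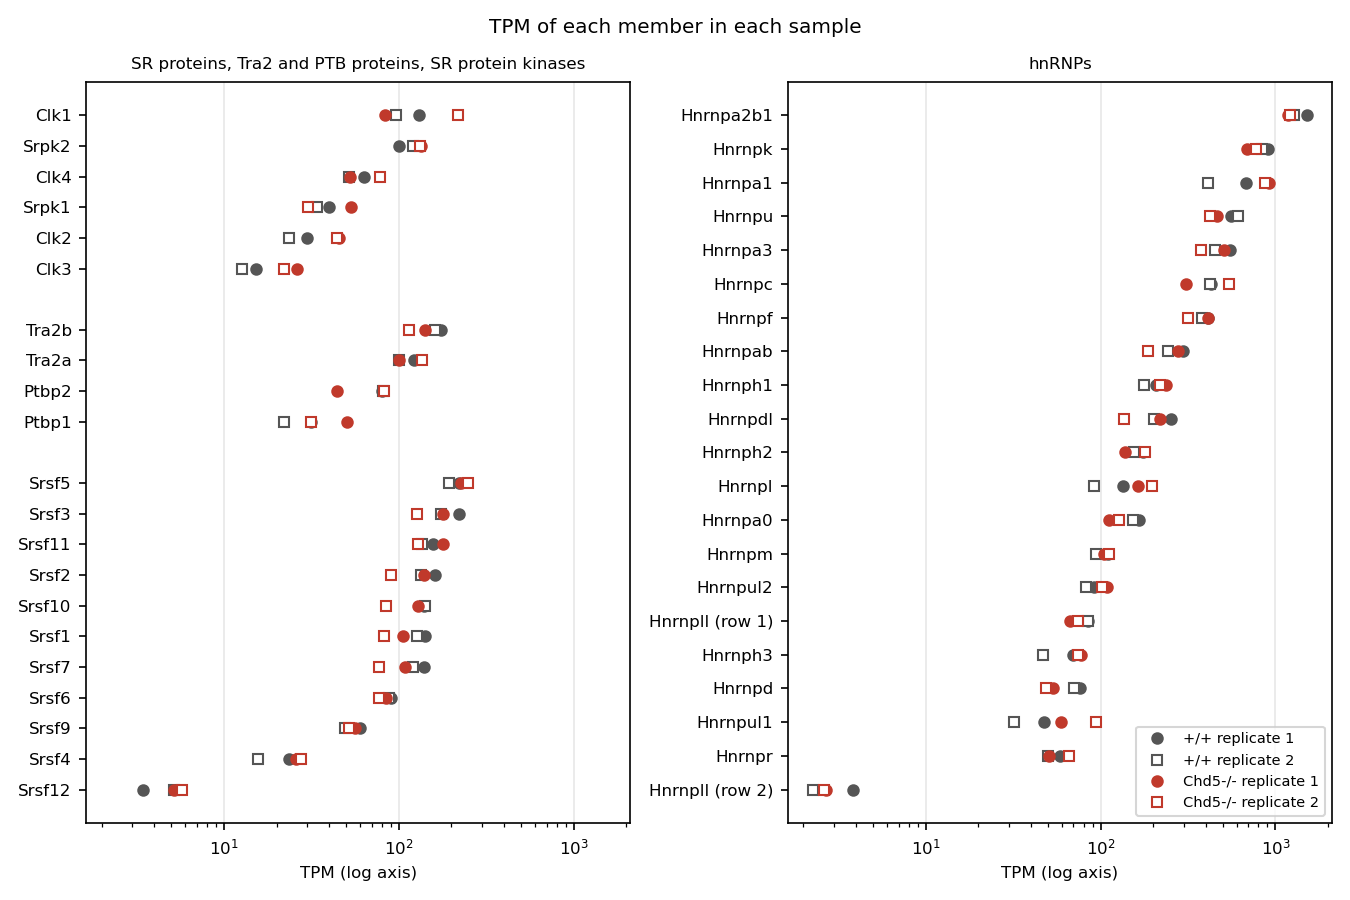
TPM (log axis) of the 42 members averaging 1 TPM or more in each of the 4 samples, grey for +/+ and red for Chd5-/-, filled circles for replicate 1 and open squares for replicate 2. hnRNPs span from Hnrnpa2b1 near 1300 TPM to the second Hnrnpll row near 2.85 TPM, and for most members the distance between genotypes is no larger than the distance between replicates.

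No member passed an adjusted p-value of 0.05 in limma, where 0.0557% of all rows did, and the smallest adjusted p among members was 0.166, for Clk2. At an unadjusted p under 0.05, 3 of 42 members (7.14%) were higher in Chd5-/- cells and 0 were lower, against 21.9% and 2.27% of all rows. The genotypes did not overlap for 23 members, the Chd5-/- pair being the higher for 12 (28.6%) and the lower for 11 (26.2%), against 46.3% and 13.0% of all rows. The share of members without overlap was thus below the background on the higher side and above it on the lower side, a difference that was not tested. At the unadjusted threshold the members were below the background on the higher side, while 0 of 42 lower is close to 2.27%. The lower share depended on the scaling. It was 26.2% of members against 10.4% of all rows after median-of-ratios scaling, and 11.9% against 6.26% with trends with GC content and transcript length removed. The median log2 fold change was -0.14 for SR proteins, -0.12 for hnRNPs, -0.16 for Tra2 and PTB genes and 0.27 for the kinases, beside 0.34 for all rows. For 17 of the 42 members (40.5%) the genotype difference was larger than the difference between replicates of either genotype, against 46.4% of all rows.

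**Figure D2:**
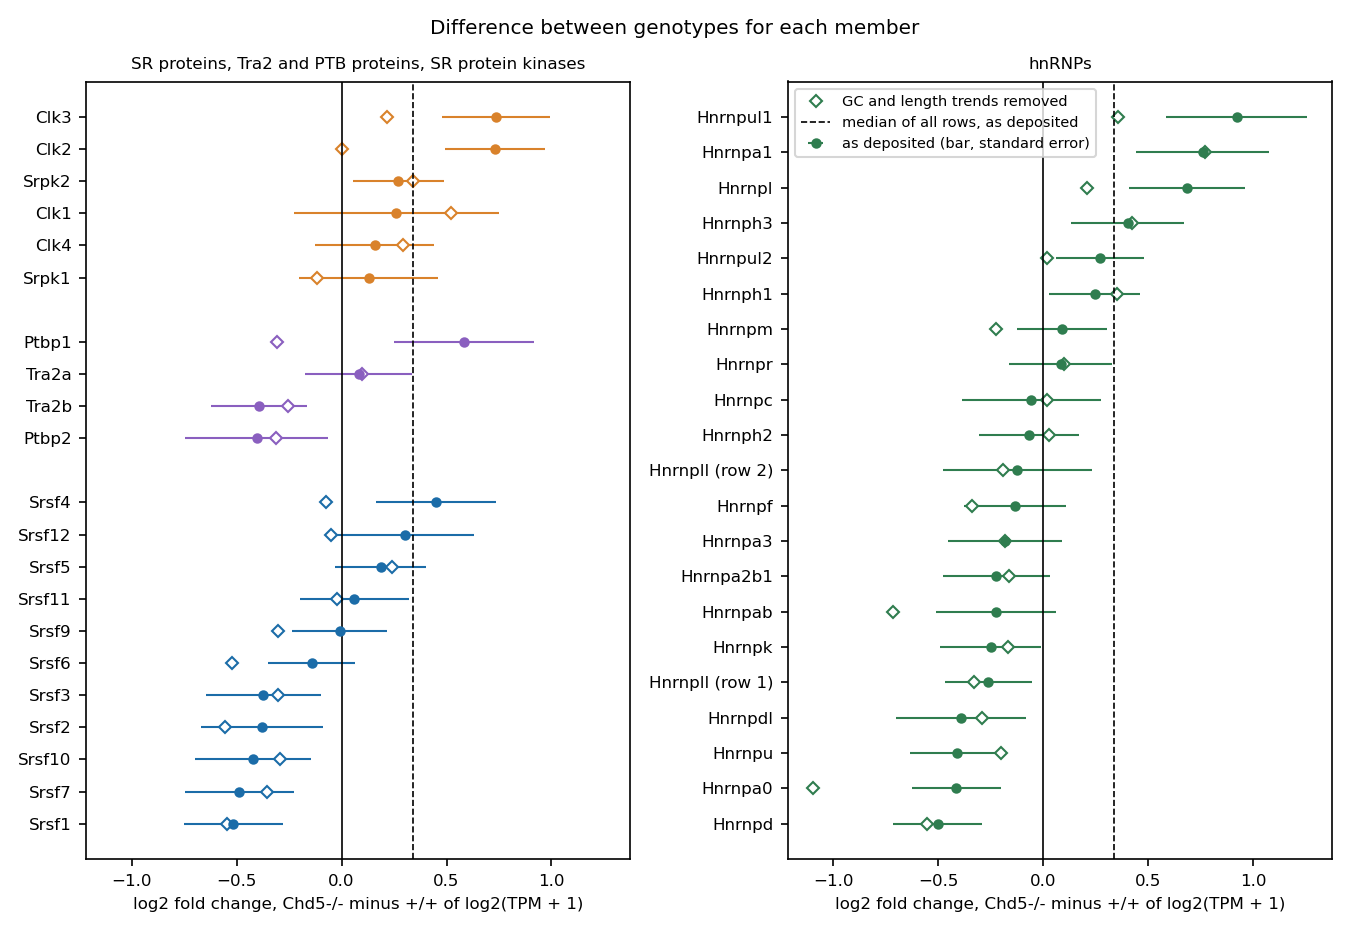
Log2 fold change (Chd5-/- minus +/+, log2(TPM + 1) scale) of each member as deposited (filled, bar of 1 standard error) and with trends with GC content and transcript length removed (open diamonds). All 6 kinases lie above 0 as deposited and 5 of 6 with the trends removed (2 of 6 after median-of-ratios scaling, not drawn). As deposited 7 of 11 SR proteins lie below 0, and the dashed line marks the median of all rows, 0.34.

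Of the SR proteins 7 of 11 had log2 fold changes below 0 and none passed the unadjusted threshold as deposited. Both Chd5-/- samples lay below both controls in 4 genes and above them in 2, and 5 overlapped, beside 13.0% of all rows below and 46.3% above. The lowest was Srsf1 (ENSMUSG00000018379.17, chromosome 11, 88047373 to 88053755, plus strand of GRCm38), the prototype SR protein, also known as a regulator of splice site choice and of mRNA decay. Srsf1 was at 141.06 and 126.75 TPM in +/+ and at 106.01 and 81.93 TPM in Chd5-/- samples, so the genotypes did not overlap. Its log2 fold change was -0.52 (standard error 0.24, unadjusted p = 0.0788 from limma, adjusted p = 0.254), or 0.699-fold. Leaving out 1 sample at a time moved this value between -0.70 and -0.33.

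Srsf7 and Srsf10 also had both Chd5-/- samples below both +/+ samples and were singled out after their values were seen. Srsf7, a zinc knuckle SR protein, was at 138.52 and 120.07 TPM in +/+ and at 108.84 and 77.21 TPM in Chd5-/- samples (log2 fold change -0.49). Srsf10, which acts as a repressor when dephosphorylated, was at 139.27 and 141.26 TPM and at 129.16 and 84.47 TPM (-0.42). In both genes Chd5-/- replicate 2 stood well below the other 3 samples, and without it the log2 fold changes were -0.24 and -0.12. Srsf2 (-0.38) and Srsf3 (-0.37) had values in the same range, but with overlap between genotypes. Srsf3, the smallest family member and 1 of the 3 most abundant, was at 219.62 and 175.15 TPM in +/+ and at 179.85 and 126.93 TPM in Chd5-/- samples.

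The most abundant SR protein gene did not follow them. Srsf5 was at 221.26 and 194.57 TPM in +/+ and at 226.02 and 247.10 TPM in Chd5-/- samples, without overlap but with a log2 fold change of only 0.19 (adjusted p = 0.617). Srsf11, next in abundance after Srsf3, was at 157.34 and 134.89 TPM and at 179.46 and 128.82 TPM, with overlap (0.061). The highest log2 fold change was that of Srsf4, a long SR protein close in sequence to Srsf5 and Srsf6, at 0.45 (adjusted p = 0.378), from 23.45 and 15.60 TPM to 25.67 and 27.46 TPM. Srsf6 and Srsf9 were at -0.14 and -0.0090, and the low Srsf12, with a mean of 4.90 TPM, at 0.30. The ratio of Srsf5 to Srsf3 within each sample was 1.01 and 1.11 in +/+ and 1.26 and 1.95 in Chd5-/-, and that of Srsf4 to Srsf6 was 0.259 and 0.177 against 0.305 and 0.354. Both ratios were chosen after the values were seen. They did not overlap between genotypes, although with 2 samples against 2 an exact permutation test cannot give a two-sided p below 0.333.

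The class median of the SR proteins was below 0 under each of the 5 scalings, but single genes changed sign, as with Srsf5 (-0.19), Srsf11 (-0.31) and Srsf12 (-0.0082) after median-of-ratios scaling. After median-of-ratios scaling 10 of 11 were below 0, with a median of -0.51, and 9 of 11 had both Chd5-/- samples below both +/+ samples, against 29.8% of all rows. Under that scaling Srsf1, Srsf2, Srsf3, Srsf7 and Srsf10 had an unadjusted p under 0.05 (5 of 11, against 10.4% of all rows lower), the smallest adjusted p being 0.188, while 0.0477% of all rows had an adjusted p under 0.05. This count was 7 without Chd5-/- replicate 1, where 17.8% of all rows were lower, and 5 of the 7 had an adjusted p under 0.05 from limma, as had 1335 of all rows. It was 2 without Chd5-/- replicate 2, where 14.4% of all rows were lower, and 0 without either +/+ sample. Without the GC and length trends 10 of 11 were below 0 again, with a median of -0.30, and 2 (Srsf1 and Srsf6) had an unadjusted p under 0.05, against 6.26% of all rows lower. Srsf1 was then at -0.55 and Srsf6 at -0.52. In that fit 5 of 11 had both Chd5-/- samples below both +/+ samples, against 25.1% of all rows, and 1 had both above, against 21.3%.

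**Figure D3:**
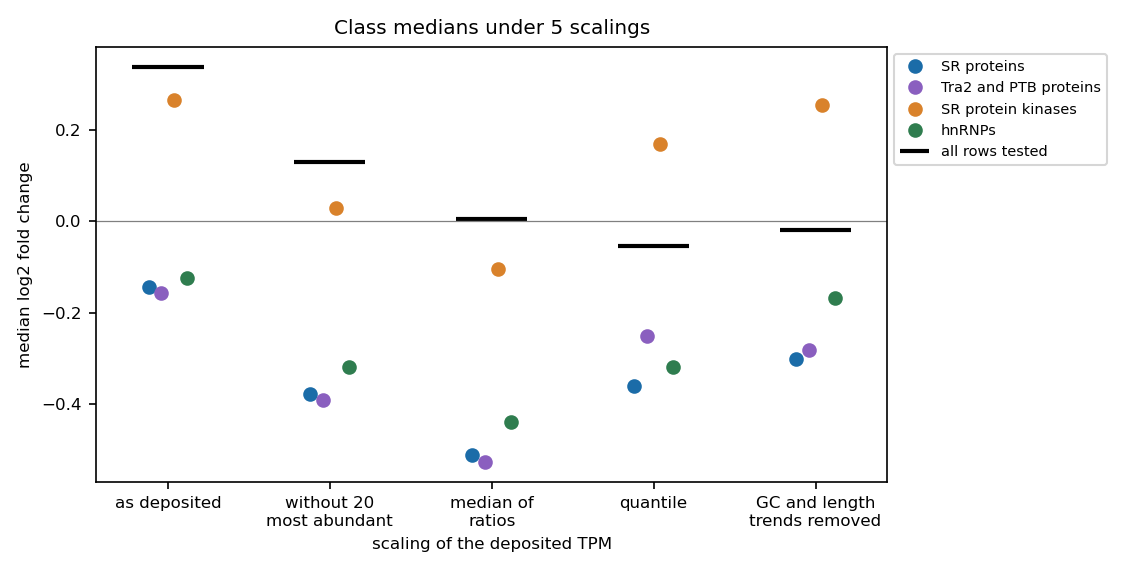
Median log2 fold change of each class (points) and of all rows tested (black bars) as deposited and under 4 other scalings. SR proteins, hnRNPs and Tra2 and PTB genes lie below the median of all rows under each of the 5, while the kinases lie below it under 3 and above it under 2.

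The SR protein kinases had log2 fold changes above 0 in 6 of 6 members as deposited, beside 8850 of 12576 rows. It was 2 of 6 after median-of-ratios scaling (6327 of 12576 rows) and 4 of 6 without the 20 most abundant rows (7237 of 12576). It was 5 of 6 after quantile normalization (5840 of 12576) and 5 of 6 with GC and length trends removed (5835 of 12110). Their median lay below that of all rows as deposited, but above it with the trends removed (0.26 against -0.018). Clk2 and Clk3, dual-specificity kinases that phosphorylate serines of the SR tail in the nucleus, had the lowest p-values of the class. Clk2 (ENSMUSG00000068917.12, chromosome 3, 89164795 to 89176921, plus strand), whose promoter is printed first, was at 30.05 and 23.68 TPM in +/+ and at 45.28 and 44.61 TPM in Chd5-/- samples. Its log2 fold change was 0.73 (standard error 0.24, unadjusted p = 0.0263, adjusted p = 0.166 from limma). Clk3 (ENSMUSG00000032316.8, chromosome 9, 57750624 to 57765860, minus strand) was at 15.35 and 12.70 TPM and at 26.13 and 21.92 TPM, with a log2 fold change of 0.74 (standard error 0.26, unadjusted p = 0.0336, adjusted p = 0.178). All mutant samples thus stood above all control samples for both genes.

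The values of Clk2 and Clk3 were smaller once GC content was taken into account. The transcripts of Clk2 and Clk3 have 55.4% and 52.6% G and C, near the high end of the members, and the log2 fold changes were 0.0029 and 0.22 without the GC and length trends (unadjusted p = 0.988 and 0.354 from limma). After median-of-ratios scaling they were 0.37 and 0.38. Leaving out either +/+ sample took both unadjusted p-values above 0.05, to 0.0696 and 0.0934 without replicate 1 and to 0.197 and 0.195 without replicate 2. For Clk3 the limma p-value also exceeded 0.05 without Chd5-/- replicate 1 (0.103). Clk3 overlaps Edc3 on the opposite strand, and whether counting used the strand is not given in the sources used here. The same limit applies to Clk4, Srpk2, Srsf2, Hnrnpab, Hnrnph3, Hnrnpk and Hnrnpu, which also overlap measured protein-coding genes on the opposite strand.

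Clk1 and Clk4 form the other pair of this kinase family, known for nuclear transcripts that retain introns. Clk1 was at 131.25 and 96.16 TPM in +/+ and at 83.49 and 217.09 TPM in Chd5-/- samples, so the mutant replicates stood on either side of the controls. Clk4 was at 63.20 and 51.90 TPM and at 52.50 and 78.14 TPM, with Chd5-/- replicate 1 between the controls and replicate 2 above them. Their log2 fold changes of 0.26 and 0.16 were smaller than the gap between the Chd5-/- replicates, which was -1.37 and -0.57 (replicate 1 minus replicate 2). Without Chd5-/- replicate 1 Clk1 was at 0.94, and without replicate 2 at -0.42.

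The Srpk kinases act mainly in the cytoplasm, where they prepare SR proteins for import into the nucleus. Srpk2, the more abundant and the form enriched in neural tissue, was at 100.67 and 121.20 TPM in +/+ and at 134.09 and 132.84 TPM in Chd5-/- samples, without overlap (log2 fold change 0.27, adjusted p = 0.479). Srpk1 was at 39.75 and 34.10 TPM and at 53.51 and 30.39 TPM, with overlap (0.13). The kinases summed to 380 and 340 TPM in +/+ and to 395 and 525 TPM in Chd5-/-, most of the excess in Chd5-/- replicate 2 being Clk1.

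Tra2 proteins resemble SR proteins but bind GAA-rich enhancers, and PTB proteins repress exons through pyrimidine tracts. Tra2b was at 173.80 and 161.38 TPM in +/+ and at 142.09 and 113.90 TPM in Chd5-/- samples, the mutant samples below the controls (log2 fold change -0.39, standard error 0.23, adjusted p = 0.340). Tra2a was at 121.89 and 100.18 TPM and at 100.91 and 135.57 TPM, with overlap (0.081). The 2 paralogs thus differed in order, and the Tra2a to Tra2b ratio was 0.701 and 0.621 in +/+ against 0.710 and 1.19 in Chd5-/- samples.

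Ptbp1 was at 31.28 and 22.04 TPM in +/+ and at 50.33 and 31.59 TPM in Chd5-/- samples. The lower mutant sample barely cleared the higher control (log2 fold change 0.58, standard error 0.33, adjusted p = 0.335). Ptbp2 was at 79.86 and 81.31 TPM and at 44.35 and 82.71 TPM, so only Chd5-/- replicate 1 stood apart (-0.41, adjusted p = 0.497). The Ptbp1 to Ptbp2 ratio was 0.392 and 0.271 in +/+, 1.13 in Chd5-/- replicate 1 and 0.382 in replicate 2. Without Chd5-/- replicate 1 the log2 fold change of Ptbp2 was 0.037, and without replicate 2 it was -0.85. In Chd5-/- replicate 1 the summed neural stem cell, astrocyte, oligodendrocyte lineage and neuronal markers were each lowest. Those of microglia and of endothelial and mesenchymal cells were highest there, and any part of this in the Ptbp2 value was not tested. With GC and length trends removed Ptbp1 was at -0.31, the reverse of its deposited direction, its transcripts having the highest GC content of all members (56.2%).

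**Figure D4:**
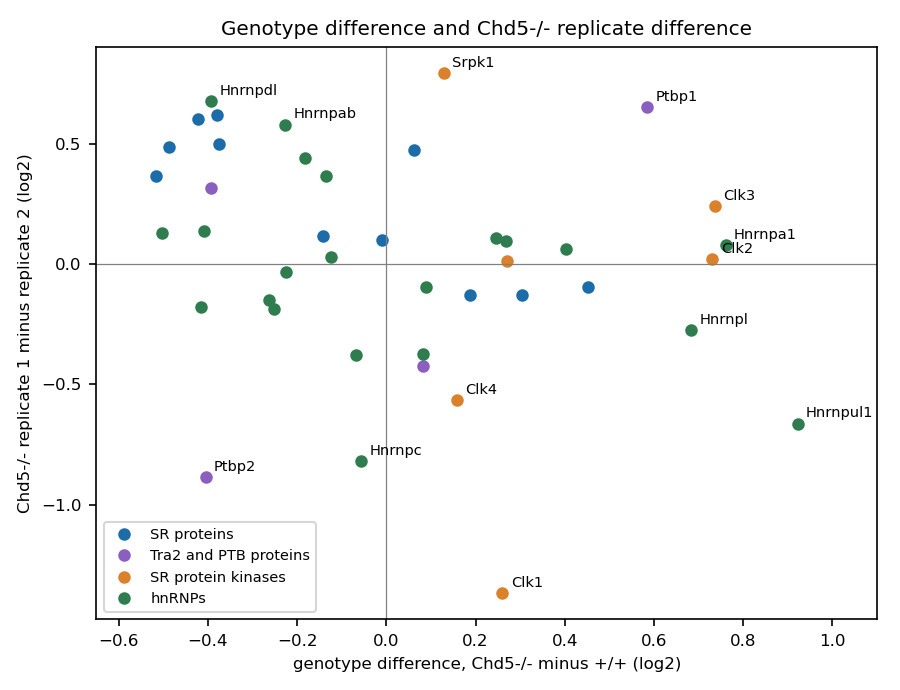
Genotype difference (horizontal, Chd5-/- minus +/+, log2) against the difference between the Chd5-/- replicates (vertical, replicate 1 minus replicate 2, log2) for 42 members. Clk1, Ptbp2 and Hnrnpc differ more between the mutant replicates than between genotypes, while Clk2 (0.021) and Hnrnpa1 (0.081) lie far to the right and near 0 on the vertical axis.

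hnRNPs were split in direction, with 8 of 21 rows above 0 and 13 below, and with 6 rows without overlap on each side (28.6%), beside 46.3% of all rows above and 13.0% below. The row that passed the unadjusted threshold was Hnrnpul1 (ENSMUSG00000040725.13, chromosome 7, 25721165 to 25754757, minus strand), a relative of Hnrnpu linked to the DNA damage response. It was at 47.20 and 32.20 TPM in +/+ and at 59.26 and 94.38 TPM in Chd5-/- samples. The log2 fold change was 0.92 (standard error 0.34, unadjusted p = 0.0386, adjusted p = 0.186 from limma). The p-value exceeded 0.05 without +/+ replicate 1 (0.0577), without +/+ replicate 2 (0.224) and without Chd5-/- replicate 2 (0.0905), and the log2 fold change was 0.35 with GC and length trends removed.

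The relatives of Hnrnpul1 went separate ways. Hnrnpu, a nuclear matrix protein and chromatin-associated RNA binder, was chosen after its values were seen and was at 560.55 and 611.51 TPM in +/+ and at 462.22 and 420.06 TPM in Chd5-/- samples (log2 fold change -0.41, adjusted p = 0.324). Hnrnpul2 was at 0.27. The ratio of Hnrnpul1 to Hnrnpu within a sample was 0.0842 and 0.0527 in +/+ and 0.128 and 0.225 in Chd5-/-, without overlap.

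Proteins of the A and B group coat nascent transcripts and block splice sites, and their genes include the most abundant member. Hnrnpa2b1, at rank 56 of all rows tested, was at 1520.6 and 1285.3 TPM in +/+ and at 1183.4 and 1210.4 TPM in Chd5-/- samples (log2 fold change -0.22, adjusted p = 0.614). Hnrnpa1 was at 677.57 and 412.38 TPM in +/+ and at 921.85 and 871.35 TPM in Chd5-/- samples (0.76, standard error 0.32, unadjusted p = 0.0593, adjusted p = 0.222). Both did not overlap, in opposite directions. The Hnrnpa1 to Hnrnpa2b1 ratio was 0.446 and 0.321 in +/+ and 0.779 and 0.720 in Chd5-/- samples.

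The value of Hnrnpa1 was not smaller when GC content was taken into account. Among other members above 0 as deposited, nor were those of Clk1, Hnrnph3, Hnrnph1, Srpk2, Clk4, Srsf5, Hnrnpr and Tra2a, named after their values were seen. In that fit they were 0.52, 0.42, 0.35, 0.34, 0.29, 0.24, 0.098 and 0.097. Hnrnpa1 transcripts have 44.2% G and C, and its log2 fold change was 0.77 without the GC and length trends (unadjusted p = 0.0600 from limma), 0.39 after median-of-ratios scaling and between 0.40 and 1.12 with 1 sample left out. The low end of that range was without +/+ replicate 2, the sample of lowest Hnrnpa1. Hnrnpa1 has processed copies of nearly the same sequence, so its value is uncertain where counting split reads among them, and the row of 1 related gene, Hnrnpa1l2, was at 0.50 TPM in +/+ replicate 1 and at 0 in the other 3 samples. Hnrnpa3 was at -0.18. Hnrnpa0, a gene with a single annotated transcript of 55.4% G and C, was at 166.68 and 153.05 TPM and at 112.40 and 127.08 TPM. Its log2 fold change of -0.42 became -1.10 without the GC and length trends, at the lowest unadjusted p of all members in that fit (0.00229, adjusted p = 0.372).

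Proteins of the D group bind AU-rich elements and control mRNA decay. Hnrnpd (ENSMUSG00000000568.15, chromosome 5, 99955935 to 99978938, minus strand), the last of the printed promoters, had the lowest log2 fold change of the hnRNPs. It was at 75.94 and 70.17 TPM in +/+ and at 53.62 and 48.94 TPM in Chd5-/- samples, a difference of -0.50 (standard error 0.21, unadjusted p = 0.0621, adjusted p = 0.226), larger than the gap between replicates of either genotype. The value ranged from -0.57 to -0.44 with 1 sample left out and was -0.55 with GC and length trends removed (unadjusted p = 0.0279) and -0.87 after median-of-ratios scaling (unadjusted p = 0.00819). The related Hnrnpdl (-0.39) and Hnrnpab (-0.23) overlapped between genotypes, with Chd5-/- replicate 2 the lowest sample, and without it they were at -0.052 and 0.064.

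Hnrnpk, a poly(C) binder and the second most abundant member, was at 907.07 and 833.05 TPM in +/+ and at 684.79 and 778.48 TPM in Chd5-/- samples (log2 fold change -0.25, adjusted p = 0.546). It hosts the microRNA gene Mir7-1 on the same strand, whose row was at 0 in both +/+ samples, against 73.15 and 72.06 TPM in Chd5-/-. That row holds reads of polyadenylated RNA assigned to a short gene inside Hnrnpk and does not measure the mature microRNA.

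Hnrnpl, which binds CA repeats, and its paralog Hnrnpll, known for lymphocyte and neuronal exons, went in opposite directions. Hnrnpl, singled out after its values were seen, was at 134.45 and 92.33 TPM in +/+ and at 163.26 and 197.64 TPM in Chd5-/- samples (log2 fold change 0.68, standard error 0.27, unadjusted p = 0.0534, adjusted p = 0.212). The main Hnrnpll row was at -0.26 and the second row, of 2.85 TPM on average, at -0.12. The Hnrnpl to Hnrnpll ratio was 1.52 and 1.06 in +/+ and 2.34 and 2.56 in Chd5-/- samples. Hnrnpl transcripts have 51.8% G and C, against 45.2% for Hnrnpll. With GC and length trends removed Hnrnpl was at 0.21 and the main Hnrnpll row at -0.33. Hnrnpc, a binder of uridine tracts that keeps cryptic exons out, was at 428.27 and 422.86 TPM in +/+ and at 307.89 and 543.37 TPM in Chd5-/- samples, the controls lying between the mutant replicates (-0.057). In the H and F group, which binds G-rich runs, Hnrnph1 (0.25) and Hnrnph3 (0.40) did not overlap, whereas Hnrnph2 (-0.069) and Hnrnpf (-0.14) did. Hnrnpm (0.089) and Hnrnpr (0.082) overlapped.

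After median-of-ratios scaling 17 of 21 hnRNP rows were below 0, with a median of -0.44, and 16 had both Chd5-/- samples below both +/+ samples, against 29.8% of all rows. Those with an unadjusted p under 0.05 were Hnrnpd, Hnrnpa0, Hnrnpu, Hnrnpk and the main Hnrnpll row, 5 of 21 against 10.4% of all rows lower. The count was 9 without Chd5-/- replicate 1, with 8 of them lower beside 17.8% of all rows, and 2 had an adjusted p under 0.05 from limma, as had 1335 of all rows. It was 6 without Chd5-/- replicate 2, beside 14.4% of all rows lower, and 0 without either +/+ sample. With GC and length trends removed the median was -0.17 and 12 of 21 rows were below 0, and 3 had an unadjusted p under 0.05 (Hnrnpa0, Hnrnpd and Hnrnpab), against 6.26% of all rows lower. In that fit 7 of 21 rows had both Chd5-/- samples below both +/+ samples, against 25.1% of all rows, and 3 had both above, against 21.3%. Higher rows of all classes without overlap were 4 of 42 after median-of-ratios scaling, against 30.1% of all rows. No member was higher at an unadjusted p under 0.05 without the GC and length trends, where 5.03% of all rows were, and none had an adjusted p under 0.05 from limma, where 0.033% did. After quantile normalization 4 of 42 members were lower and 0 higher at an unadjusted p under 0.05, against 8.14% and 8.77% of all rows, and 0 passed the adjusted threshold, against 0.00795%. Among hnRNP rows the log2 fold changes of Hnrnpul1, Hnrnpa1, Hnrnpl and Hnrnph3 stayed above 0 under each of the 5 scalings, Hnrnph3 at 0.034 after median-of-ratios scaling. Those of Clk2 and Clk3 did so among the kinases, with Clk2 at 0.0029 without the GC and length trends.

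As over all rows, log2 fold change tended to rise with GC content among the members, though little among hnRNPs. Across the 42 members, which share the same 4 libraries, Spearman's rho between log2 fold change and transcript GC content was 0.41, against 0.60 across 12110 rows, and it was 0.65 in the 11 SR proteins and 0.15 in the 21 hnRNP rows. The members had a median GC content of 45.0%, against 50.2% for all rows. The 3941 rows with a GC content between the quartiles of the members (43.1% to 49.3%) had a median log2 fold change of 0.061, compared with 0.34 for all rows. Set against the median of their own bin of GC content, of 10 such bins, 8 of 11 SR proteins, 13 of 21 hnRNP rows, 3 of 4 Tra2 and PTB genes and 1 of 6 kinases were lower.

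**Figure D5:**
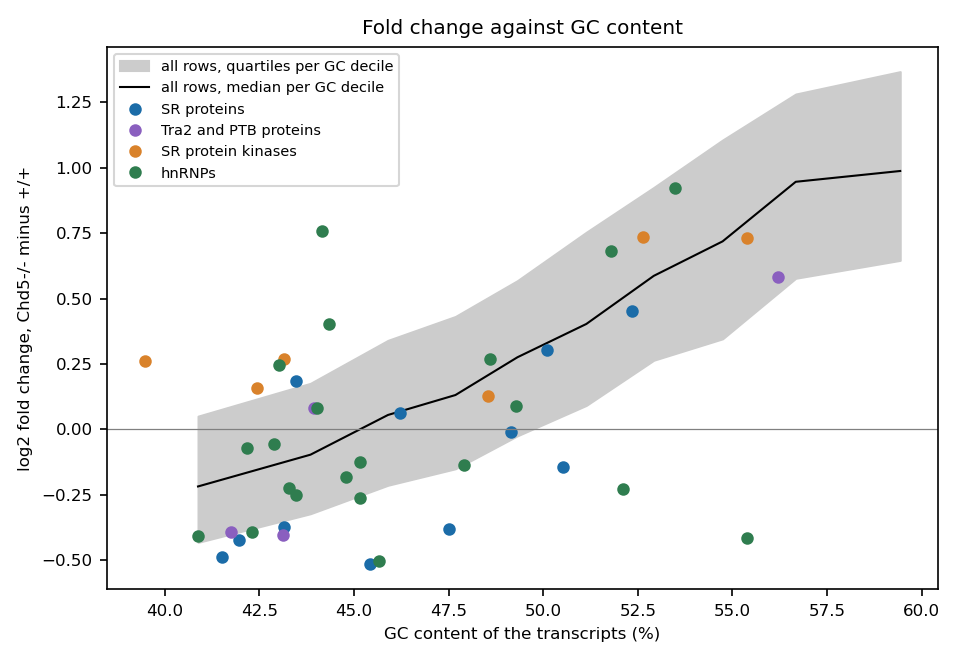
Log2 fold change (Chd5-/- minus +/+) of each member against the median GC content of its annotated transcripts (%), over the median (line) and quartiles (grey) of all rows in 10 bins of GC content. The line climbs from -0.22 to 0.99, Hnrnpa1 lies above the grey band at 44.2% and Hnrnpa0 below it at 55.4%.

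The replicates of a genotype differed within the classes. +/+ replicate 1 exceeded replicate 2 for 36 of the 42 members, by a median of 0.22 on the log2 scale, against 0.14 for all rows. Between the Chd5-/- samples replicate 1 was higher for 8 of 11 SR proteins, with a median gap of 0.37, while over all rows the median gap was -0.0021. For hnRNPs that gap was 0.032. The median size of the gap between Chd5-/- replicates in SR proteins (0.37) was about as large as the median size of their genotype difference (0.37).

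Annotated transcripts of the members differed from those of other genes in respects the rule did not use. The number of annotated transcripts per gene (34 for Hnrnpk) and the abundance were not matched. A transcript with a retained intron is annotated for 76.2% of members, against 60.5% of the protein-coding genes tested. In GENCODE M21, 29 of the 42 genes (69.0%) have a transcript classed as a target of nonsense-mediated decay, against 29.5% of the 11235 protein-coding genes tested. This was 9 of 11 SR proteins, 10 of 21 hnRNPs, 4 of 4 Tra2 and PTB genes and 6 of 6 kinases. TPM per gene does not tell which transcript was present. Factors of nonsense-mediated decay, which degrade such transcripts, were above 0 in 10 of 10 genes, beside 8850 of 12576 rows, with 3 at an unadjusted p under 0.05, beside 21.9% of all rows higher, and 0 with an adjusted p under 0.05, at a median log2 fold change of 0.60. Upf1, its central helicase, was at 5.53 and 4.43 TPM in +/+ and at 11.30 and 10.41 TPM in Chd5-/- samples, a log2 fold change of 0.99 (adjusted p = 0.143). With GC and length trends removed the median of the list was 0.15 and Upf1 was at 0.22.

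Other parts of the splicing machinery were examined from fixed lists. The list of U1 and U2 snRNP proteins, which recognize splice sites, also held U2af1, U2af2, Sf1 and Puf60. Sm proteins, which other snRNPs share, were in it too. Its 29 rows had a median log2 fold change of 0.31. At an unadjusted p under 0.05, 9 of them were higher and 0 lower, beside 21.9% and 2.27% of all rows. The extremes were the Sm protein Snrpd2 (1.83, adjusted p = 0.120) and the branch site factor Sf3b4 (-0.50). Of 25 components of the U4/U6.U5 snRNP and the Prp19 complex, which form the catalytic core, 9 were higher and 0 lower, with a median of 0.26, from Lsm5 (-0.45) to Lsm4 (2.13, adjusted p = 0.120). Among 35 rows of neural and other alternative splicing regulators, 4 were higher and 1 lower, with a median of 0.11. Elavl3, a neuronal RNA binder, was lowest at -0.94 and Nova2, a neuronal splicing regulator, highest at 1.00. hnRNP proteins that carry other symbols gave 1 higher and 1 lower of 7 rows, Raly at 0.95 and Syncrip at -0.63. As deposited, the medians of the core components were thus close to that of all rows (0.34), while those of SR proteins and hnRNPs were below it. Below it too were the other alternative splicing regulators (0.11) and the hnRNP proteins with other symbols (0.13). With GC and length trends removed the core medians were 0.10 and -0.0. Those of the regulators and of the hnRNP proteins with other symbols were then -0.083 and -0.14, beside -0.018 for all rows. None of these rows had an adjusted p under 0.05.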

How the data were processed

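RNA-seq of 2 +/+ and 2 Chd5-/- NSC samples was analysed from stranded libraries of polyadenylated RNA. Expression values came as TPM, deposited by the authors for 18169 rows in a single table. Per the labels, the submitters' processing notes name Bowtie2 2.2.3, RSEM 1.2.20 and build mm10, and the annotation and the strand setting are not given in the sources used here. Columns were assigned by name, and the deposited TPM were not rescaled. TPM keeps no depth, so precision rests on the samples alone.

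Log2(TPM + 1) was tested over 12576 rows (mean of at least 1 TPM) with limma 3.58.1 in R 4.3.3 (lmFit, eBayes with a trend, two-sided, Benjamini-Hochberg over all rows), after the script was tested on simulated data. The fit was repeated with 0.1 or 5 as the pseudocount, with all rows or those averaging 10 TPM or more, after median-of-ratios or quantile scaling, after rescaling without the 20 most abundant rows, after loess removal (span 0.5) of trends with GC content and length, with a replicate block, with no variance trend, with rows of the same name summed, and with each sample left out. GC content and length are medians over GENCODE M21 transcripts (GRCm38, the build of mm10), found for 96.3% of rows tested. Promoters are from RefSeq. Full values are given for members with an unadjusted p under 0.05, the extremes and the 3 most abundant of each class, and all Tra2, PTB and kinase genes. Outside this rule they are also given for Srsf7, Srsf10, Hnrnpu, Hnrnpl, Hnrnpa0 and Hnrnpc, whose values had been seen. Members, lists and this rule were chosen with earlier results of these data known. Same-numbered samples did not deviate together (r = -0.152 over all rows and -0.0015 over the 42 members). With a single replicate difference per genotype this cannot tell whether the numbers pair samples, and the main fit used no block. Python 3.11.15, pandas 2.3.3, numpy 2.4.6 and matplotlib 3.10.9 were used.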

Additional observations from a re-analysis of the deposited data

How the results depend on the processing

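Medians of SR proteins, hnRNPs and Tra2 and PTB genes were below 0 under every scaling, whereas no call at an unadjusted p under 0.05 as deposited held under all of them. In the order SR proteins, hnRNPs, Tra2 and PTB genes and kinases, the members past that threshold numbered 0, 1, 0 and 2 as deposited. Median-of-ratios scaling gave 5, 5, 1 and 0, quantile normalization 1, 3, 0 and 0, leaving the 20 most abundant rows out of the total 2, 3, 1 and 0, and removal of the GC and length trends 2, 3, 0 and 0. Medians in this order were -0.51, -0.44, -0.53 and -0.11 by median-of-ratios, -0.36, -0.32, -0.25 and 0.17 by quantile normalization, and -0.38, -0.32, -0.39 and 0.030 with those rows left out. The hnRNP count was 2 with no minimum TPM and 0 without the variance trend. With the replicate block the counts were 0 in all 4 classes, and with the block and no GC and length trends 0, 1, 0 and 0. The crossed block gave 0, 2, 0 and 2. It was added after the data were seen because same-numbered samples tended to deviate in opposite directions over all rows (r = -0.152). Over the members they did not (r = -0.0015). The crossed block was chosen from the deviations that it removes, so its counts are a description and no independent check. Over all rows 7 passed the adjusted threshold as deposited, 4 with a pseudocount of 0.1, 0 with no minimum TPM, 6 by median-of-ratios, 1 by quantile normalization, 4 without the trends and 0 with the replicate block, whether or not the trends were removed. The cause was not tested.

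With 1 sample left out, as deposited, counts went from 0 to 5 for SR proteins, 0 to 4 for hnRNPs, 0 to 2 for Tra2 and PTB genes and 0 to 2 for kinases, beside 5.75% to 27.8% of all rows higher and 0.644% to 7.5% lower at the same threshold, and medians from -0.20 to -0.069, -0.19 to -0.037, -0.23 to 0.15 and 0.22 to 0.53. Tra2 and PTB genes had a median above 0 without Chd5-/- replicate 1. Over all rows 0 to 1247 passed the adjusted threshold, the high numbers being 1247 without Chd5-/- replicate 1 and 1086 without replicate 2, when the spread is that of the +/+ pair and the lone mutant sample is assumed to vary like it. None of these were members. The same under median-of-ratios scaling was added after the data were seen. Without +/+ replicate 1, +/+ replicate 2, Chd5-/- replicate 1 and Chd5-/- replicate 2 in turn, the medians were -0.58, -0.44, -0.58 and -0.43 for SR proteins, -0.50, -0.48, -0.41 and -0.37 for hnRNPs, -0.52, -0.51, -0.23 and -0.55 for Tra2 and PTB genes and -0.063, -0.065, 0.16 and 0.042 for kinases. The counts were 0, 0, 7 and 2, then 0, 0, 9 and 6, then 0, 0, 1 and 2, and then 0, 0, 1 and 1, and over all rows 0, 0, 1335 and 1048 passed the adjusted threshold. Of these, 8 members passed without Chd5-/- replicate 1 and 1 without replicate 2, all lower in Chd5-/-.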
